A study of Homo sapiens with 12 samples.

Results

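Cells of the human embryonic kidney line 293T carrying the hairpin shRNA2 against RBFOX2 were set against 293T cells carrying the hairpin shRNA1 against the same gene. The comparison took the 3 arrays titled shRNA2 and the 3 titled shRNA1, 6 of the 12 arrays of the series. The other 6 were 3 arrays of the non-target control group and 3 of the group with another RBFOX2 hairpin, shRNA3, and they entered only the estimate of the spread and the descriptions in which they are named. All 4 groups had been infected with a hairpin lentivirus, kept in puromycin at 1 ug/mL for 10 days from 48 hours after infection, and lysed for total RNA. The protocols describe an infected and selected population, with no cloning step, so each hairpin stands for 1 lentiviral reagent and the 2 groups differ in every effect of that reagent, not in RBFOX2 alone. In bulk RNA, fewer cells with a transcript and less transcript per cell cannot be told apart.

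RBFOX2 is an RNA-binding protein of the RBFOX family, which recognises GCAUG elements in pre-mRNA. As a general rule, binding in the intron downstream of an alternative exon favours its inclusion, and binding upstream favours its skipping. Known targets of the family include cytoskeletal, membrane and vesicle-transport genes such as protein 4.1 (EPB41), ENAH and fibronectin (FN1). A hairpin RNA is processed into a small RNA that guides cleavage of its intended transcript. Such small RNAs can also lower transcripts with partial matches to their seed, which is why several hairpins to a gene are commonly compared.

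Probe sets on the array each report 1 exon or the join between exons (a junction), with values on a log2 scale. A gene value was the mean of the kept probe sets of a gene. The splicing index was the log2 value of a probe set less the average of the remaining kept probe sets in that gene, taken array by array. It measures unequal change within a gene, so a higher index says that an exon or junction was used more relative to the rest of the gene. All differences are shRNA2 minus shRNA1 unless another pair is named, errors on differences are standard errors (SE) of the limma fit with 3 arrays per group, and p-values were adjusted by Benjamini-Hochberg across every gene or probe set tested.

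RBFOX2 itself was less depleted with shRNA2. Its gene value, over 44 probe sets, was 8.59, 8.54 and 8.51 on the shRNA1 arrays and 9.10, 9.11 and 9.16 on the shRNA2 arrays. All shRNA2 arrays were above all shRNA1 arrays, and both groups were below the control arrays, at 9.59, 9.58 and 9.58. The difference was 0.58 (SE 0.03, adjusted p = 6.94e-07 by limma), which makes the shRNA2 signal 1.492 times that of shRNA1. Over single probe sets 43 of 44 were higher with shRNA2 and 29 were called higher, where 0.0539% of all named probe sets were called higher and 0.113% were called in either direction. The differences of single RBFOX2 probe sets ran from -0.08 to 1.06, and the median probe set kept 43.1% of its control signal with shRNA1 and 69.0% with shRNA2. The paralogs RBFOX1 (difference 0.06, SE 0.04, adjusted p = 0.577) and RBFOX3 (difference 0.07, SE 0.04, adjusted p = 0.519) did not pass the test, and their arrays overlapped.

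Between the 2 hairpins 74 of 417377 probe sets had a different splicing index (0.0177%), which required an adjusted p under 0.05 and a 1.5-fold or larger difference. They lay in 42 genes. With shRNA2 the index was higher for 56 of them (0.0134%), 38 junctions and 18 exons, and lower for 18 (0.00431%), 16 junctions and 2 exons. The difference was at least 2-fold for 43. For 59 of the 74 the shRNA2 mean lay between the control mean and the shRNA1 mean. This order was read on the arrays that gave the calls, so the count is a description and no test of a graded response. The 59 include probe sets with shRNA2 close to control, such as those of PXK (shRNA2 minus control 0.08, adjusted p = 0.787 by limma) and P2RX1 (0.09, adjusted p = 0.783). Most of the 42 genes held a single called probe set, and 9 held 3 or more. EPB41 held 7, NKIRAS2 5, EPB41L2, FN1 and GOLIM4 4 each, and APBB2, DIAPH1, ENAH and SLIT2 3 each. Probe sets of 1 gene that report the same exon choice are not independent of each other. Only 7 of the 42 genes were also called at the gene level. The arrays of the 2 hairpins did not overlap in any of the 74, nor in 11.2% of all probe sets tested. A lack of overlap in a called probe set therefore adds nothing to its call.

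Protein 4.1 genes, whose products tie spectrin and actin to the cell membrane, gave the largest difference. The junction JUC06013065.hg.1 of EPB41L2, which encodes protein 4.1G, had a splicing index of -3.53, -3.08 and -3.14 with shRNA1 and -0.94, -1.09 and -0.95 with shRNA2. The groups did not overlap, and both lay below the control values of 0.15, 0.39 and 0.17. The difference of 2.26 (SE 0.11, adjusted p = 1.45e-05) is 4.784-fold. Against control the index was 11.250-fold lower with shRNA1 and 2.351-fold lower with shRNA2. In EPB41 the junction JUC01003161.hg.1 was at -2.63, -2.22 and -2.20 with shRNA1 and at -0.59, -0.78 and -0.62 with shRNA2. Its lowest shRNA2 array was more than 1 log2 unit above its highest shRNA1 array (difference 1.69, SE 0.10, adjusted p = 8.91e-05). A second EPB41 junction, JUC01003154.hg.1, moved the other way, from 0.19, 0.42 and 0.28 with shRNA1 to -0.48, -0.56 and -0.70 with shRNA2. Here the control arrays were lowest, at -2.08, -2.14 and -2.25, and shRNA2 lay between them and shRNA1 (difference -0.87, SE 0.08, adjusted p = 0.00192). This call was lost (adjusted p = 0.074) with only the 6 arrays of the 2 hairpins fitted. EPB41 thus had 6 probe sets called higher and 1 called lower. SLIT2, an axon guidance ligand, and GOLIM4, a Golgi membrane protein, also held called probe sets in both directions, and they and EPB41 were the 3 genes that did.

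FN1, FAT3 and CLSTN1 encode proteins of the matrix and of the cell surface. The FN1 exon probe set PSR02044167.hg.1 was at -3.60, -3.79 and -3.49 with shRNA1 and at -1.68, -1.39 and -1.47 with shRNA2. Every shRNA2 array was above every shRNA1 array, with control above both at -0.84, -0.58 and -0.76 (difference 2.11, SE 0.12, adjusted p = 5.9e-05). The log2 signal of this exon was 5.68 with shRNA1 and 7.82 with shRNA2. The former is under the filter cutoff of 6.53, the 40th percentile of probe set means over all arrays. That cutoff is not a detection limit, but the shRNA1 value may be near the floor of the array. The other 3 called FN1 probe sets, an exon and 2 junctions, differed by 1.31 to 1.74, with shRNA1 signals of 6.93 to 8.10. FAT3, an atypical cadherin, held a junction at -1.01, -1.20 and -1.23 with shRNA1 and at 0.34, 0.48 and 0.45 with shRNA2. The groups lay on opposite sides of 0 (JUC11005972.hg.1, difference 1.57, SE 0.17, adjusted p = 0.00956). This call was lost without shRNA1 replicate 2 or 3 or shRNA2 replicate 2 or 3, with adjusted p-values up to 0.071 and differences of 1.53 to 1.64 over all single-array omissions. Calsyntenin 1 (CLSTN1), a transmembrane protein of the cadherin superfamily, was at -3.20, -2.54 and -2.40 with shRNA1 and at -0.90, -1.06 and -1.02 with shRNA2. Its control arrays were at 0.83, 0.81 and 0.59, so that shRNA2 lay about midway (JUC01018045.hg.1, difference 1.72, SE 0.18, adjusted p = 0.00579). The shRNA1 signal of this junction, 6.42, was also under the cutoff. The CLSTN1 call was lost with only the 6 arrays fitted (adjusted p = 0.112), and the FAT3 call with no filter on dim probe sets (adjusted p = 0.0558).

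ENAH and DIAPH1 encode regulators of actin. ENAH, which promotes the elongation of actin filaments, had junction JUC01031071.hg.1 at -1.54, -1.67 and -1.83 with shRNA1 and at -0.12, -0.05 and -0.25 with shRNA2. The groups did not overlap, and its signal stayed well above the cutoff in both, at 8.94 and 10.55 (difference 1.54, SE 0.10, adjusted p = 8.91e-05). An ENAH exon probe set, PSR01059248.hg.1, and a second junction were called higher too, by 1.42 and 1.2. DIAPH1, a formin that nucleates actin filaments, had a junction at -2.17, -2.36 and -2.45 with shRNA1 and at -0.59, -0.70 and -1.01 with shRNA2. All 3 shRNA2 arrays were above shRNA1 and below the control arrays at -0.52, -0.47 and -0.50 (JUC05013077.hg.1, difference 1.56, SE 0.18, adjusted p = 0.0116). Without shRNA1 replicate 2 or 3 or shRNA2 replicate 1 or 2 the call of this junction was lost, with adjusted p-values up to 0.0853, and with no filter on dim probe sets it was 0.061. Smaller called rises of the index lay in MPRIP, which binds myosin phosphatase, in RAC1, a small GTPase that acts on the actin cytoskeleton, in MYL6, a myosin light chain, and in NF2, which encodes merlin, with differences of 0.65 to 1.05. Of the 19 genes of a list of actin and adhesion regulators, 5 held a called probe set (26.3%), against 0.264% of all 15891 genes tested, and none of the 19 was called at the gene level. This list, like the other lists, was chosen with earlier results of these data known, so its share is a description and no test of enrichment.

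Further named junctions lay in NDEL1, GOLIM4, APBB2, HYCC1 and PICALM. NDEL1, a regulator of dynein, had the smallest error among the named probe sets. Its junction JUC17001145.hg.1 was at -0.88, -0.93 and -1.0 with shRNA1, at 0.43, 0.52 and 0.49 with shRNA2, while the control arrays were at 1.29, 1.22 and 1.25. The shRNA3 arrays, at -0.20, -0.14 and -0.30, lay between the other 2 hairpins, as RBFOX2 itself did (difference shRNA2 minus shRNA1 1.42, SE 0.06, adjusted p = 5.03e-06). GOLIM4 had junction JUC03017465.hg.1 at -1.36, -1.40 and -1.65 with shRNA1 and at -0.17, 0.21 and -0.01 with shRNA2. No shRNA2 array came within 1 log2 unit of an shRNA1 array (difference 1.48, SE 0.10, adjusted p = 0.000181). APBB2, an adaptor that binds the amyloid precursor protein, had a junction at -2.90, -3.36 and -3.26 with shRNA1 and at -1.75, -1.0 and -1.40 with shRNA2. The spread within shRNA2 was wide, and the groups did not overlap, as in every called probe set (JUC04008323.hg.1, difference 1.79, SE 0.18, adjusted p = 0.00384). HYCC1, which encodes hyccin, a part of a phosphatidylinositol 4-kinase complex, was at -2.57, -2.52 and -2.69 with shRNA1 and at -1.25, -1.10 and -1.23 with shRNA2. This junction was lowest with shRNA3, at -3.48, -3.98 and -4.01, and so did not follow the order of RBFOX2 over all 3 hairpins (JUC07009127.hg.1, difference 1.40, SE 0.12, adjusted p = 0.00126). Among the named probe sets with a higher index, only those of NDEL1 and HYCC1 passed the limma test between shRNA3 and shRNA1 (adjusted p = 0.015 and 0.0261). In the rest shRNA3 minus shRNA1 ran from -0.05 for CLSTN1 to 0.58 for PICALM, with adjusted p-values of 0.156 or more. A step from shRNA1 to shRNA3 was therefore not resolved in them. Their shRNA3 minus shRNA2 differences ran from -0.61 for PICALM (adjusted p = 0.13) to -2.01 for FN1 (adjusted p = 0.000119). Only DIAPH1 (adjusted p = 0.0612) and PICALM missed the threshold. In all but PICALM shRNA3 lay clearly nearer to shRNA1 than to shRNA2, while in RBFOX2 the differences were 0.29 and -0.28. In FN1, CLSTN1 and APBB2 the signals with shRNA1 and with shRNA3 were both under the cutoff. The shRNA1 signals of the APBB2 and HYCC1 junctions, 5.62 and 6.49, were under the cutoff. PICALM, a clathrin assembly protein, was at -3.36, -3.49 and -3.81 with shRNA1 and at -2.35, -2.46 and -2.28 with shRNA2. Both were far below the control values of -0.84, -0.73 and -0.44 (JUC11013770.hg.1, difference 1.19, SE 0.13, adjusted p = 0.00781), and the call was lost without shRNA2 replicate 3 (adjusted p = 0.0507). With only the 6 arrays fitted the calls of APBB2 (adjusted p = 0.0973) and PICALM (adjusted p = 0.0736) were lost.

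**Figure D1:**
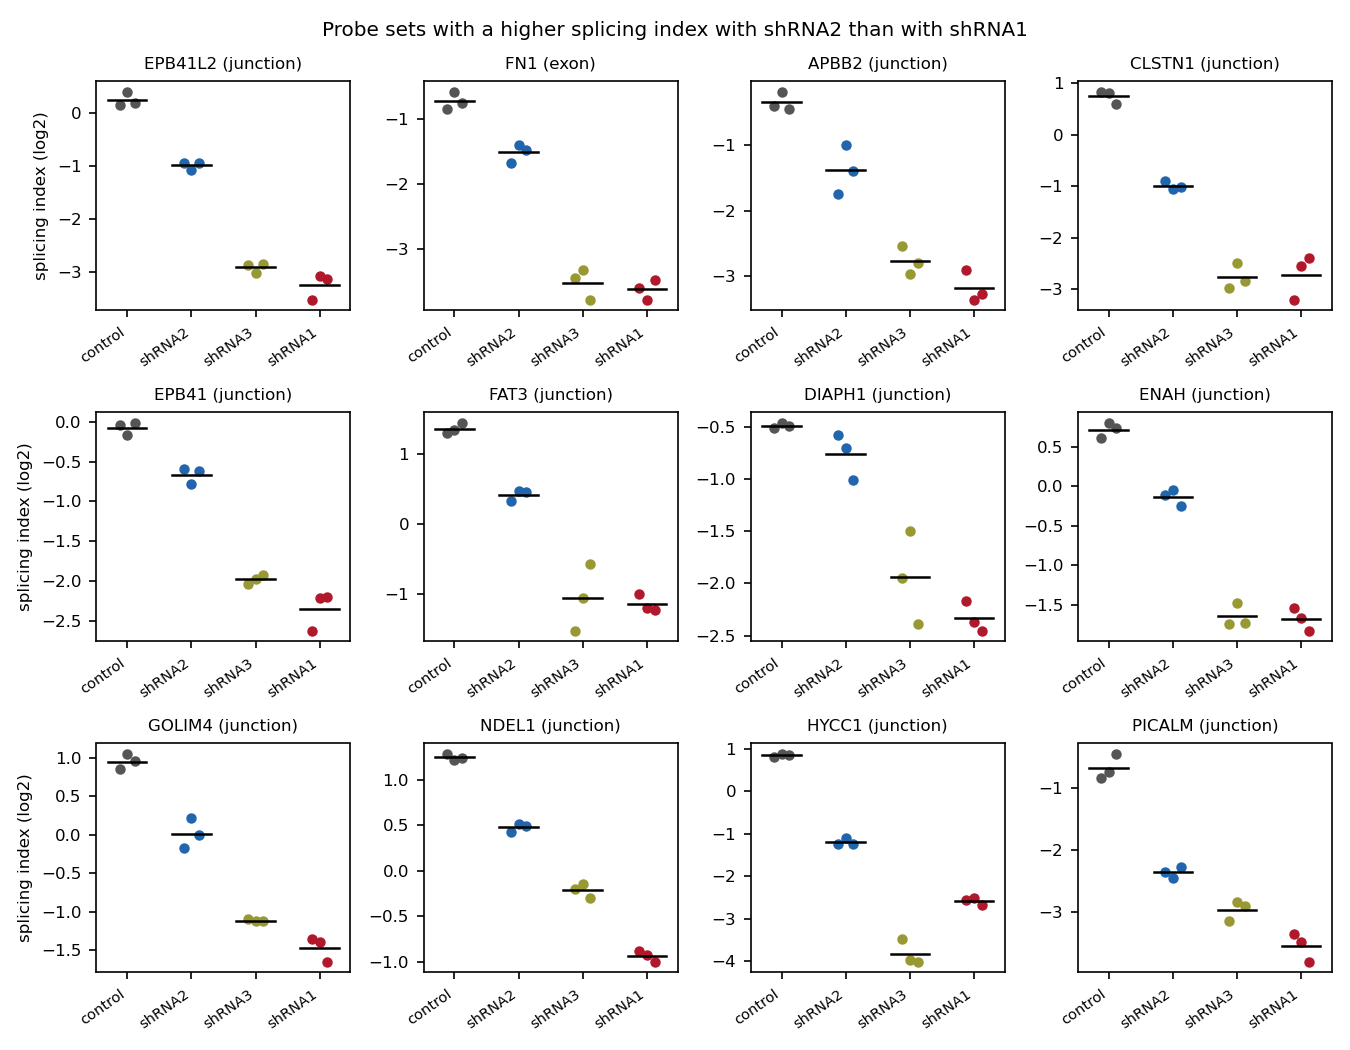
Splicing index (log2) of the 12 named probe sets that were higher with shRNA2 than with shRNA1, with 1 point per array, a bar at the mean of the 3 arrays and a separate vertical scale per panel. In each panel the shRNA2 points lie between the control points and the shRNA1 points, and in the HYCC1 panel shRNA3 is lowest.

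All 12 named probe sets with a lower index with shRNA2 had a higher mean index with shRNA1 than on control arrays. ABI1, a subunit of the WAVE complex, had a junction at -1.39, -1.51 and -1.63 with shRNA1 and at -2.89, -2.46 and -2.82 with shRNA2. Control was lower still, at -3.33, -3.55 and -3.94, with a signal of 5.73 that is under the cutoff (JUC10008069.hg.1, difference -1.21, SE 0.15, adjusted p = 0.0161). PPP5C, a serine/threonine phosphatase, had a junction at -0.67, -0.54 and -0.62 with shRNA1 and at -1.82, -1.66 and -1.69 with shRNA2. Its groups did not overlap and its call held in every single-array omission (JUC19005533.hg.1, difference -1.11, SE 0.09, adjusted p = 0.00116). FKBP14, a prolyl isomerase of the endoplasmic reticulum, had an exon at -0.10, -0.24 and -0.33 with shRNA1 and at -1.42, -1.40 and -1.29 with shRNA2. Again shRNA2 lay on the side of the control arrays, at -2.18, -2.08 and -1.81 (PSR07019397.hg.1, difference -1.15, SE 0.13, adjusted p = 0.00907). SEPTIN6, a filament-forming GTPase, differed by -0.85 (SE 0.11, adjusted p = 0.022), CLIP1, a microtubule plus-end protein, by -1.03 (SE 0.12, adjusted p = 0.0146), and PXK, a PX-domain protein, by -0.94 (SE 0.13, adjusted p = 0.0474). The control signals of the SEPTIN6 and PXK junctions were under the cutoff.

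Calls of a lower index were less stable than the size of the differences. Their number was 18 with all arrays, 7 without shRNA1 replicate 1, 7 without shRNA1 replicate 2, 10 without shRNA1 replicate 3 and 9 when shRNA2 replicate 3 was left out. The ABI1 call was lost without shRNA1 replicate 1, 2 or 3 or shRNA2 replicate 1 or 3 (adjusted p up to 0.119), and the CLIP1 call without shRNA1 replicate 1, 2 or 3 or shRNA2 replicate 2 or 3 (up to 0.101). FKBP14 lost its call without replicate 1 or 2 of either hairpin (up to 0.0665). SEPTIN6 lost its call without shRNA1 replicate 1, 2 or 3, shRNA2 replicate 1 or 3 or shRNA3 replicate 1 (up to 0.139). PXK kept its call in 3 of 12 omissions, those of control replicates 2 and 3 and shRNA3 replicate 3 (adjusted p otherwise up to 0.242). None of these differences changed sign in any omission. With no filter on dim probe sets the calls of all 5 were lost. Those of ABI1, SEPTIN6 and CLIP1 were also lost with only the 6 arrays fitted, those of CLIP1 and PXK with a replicate block, and that of PXK with the median over probe sets. In these settings the adjusted p reached 0.0787 for ABI1, 0.131 for SEPTIN6, 0.18 for CLIP1, 0.208 for PXK and 0.0509 for FKBP14.

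**Figure D2:**
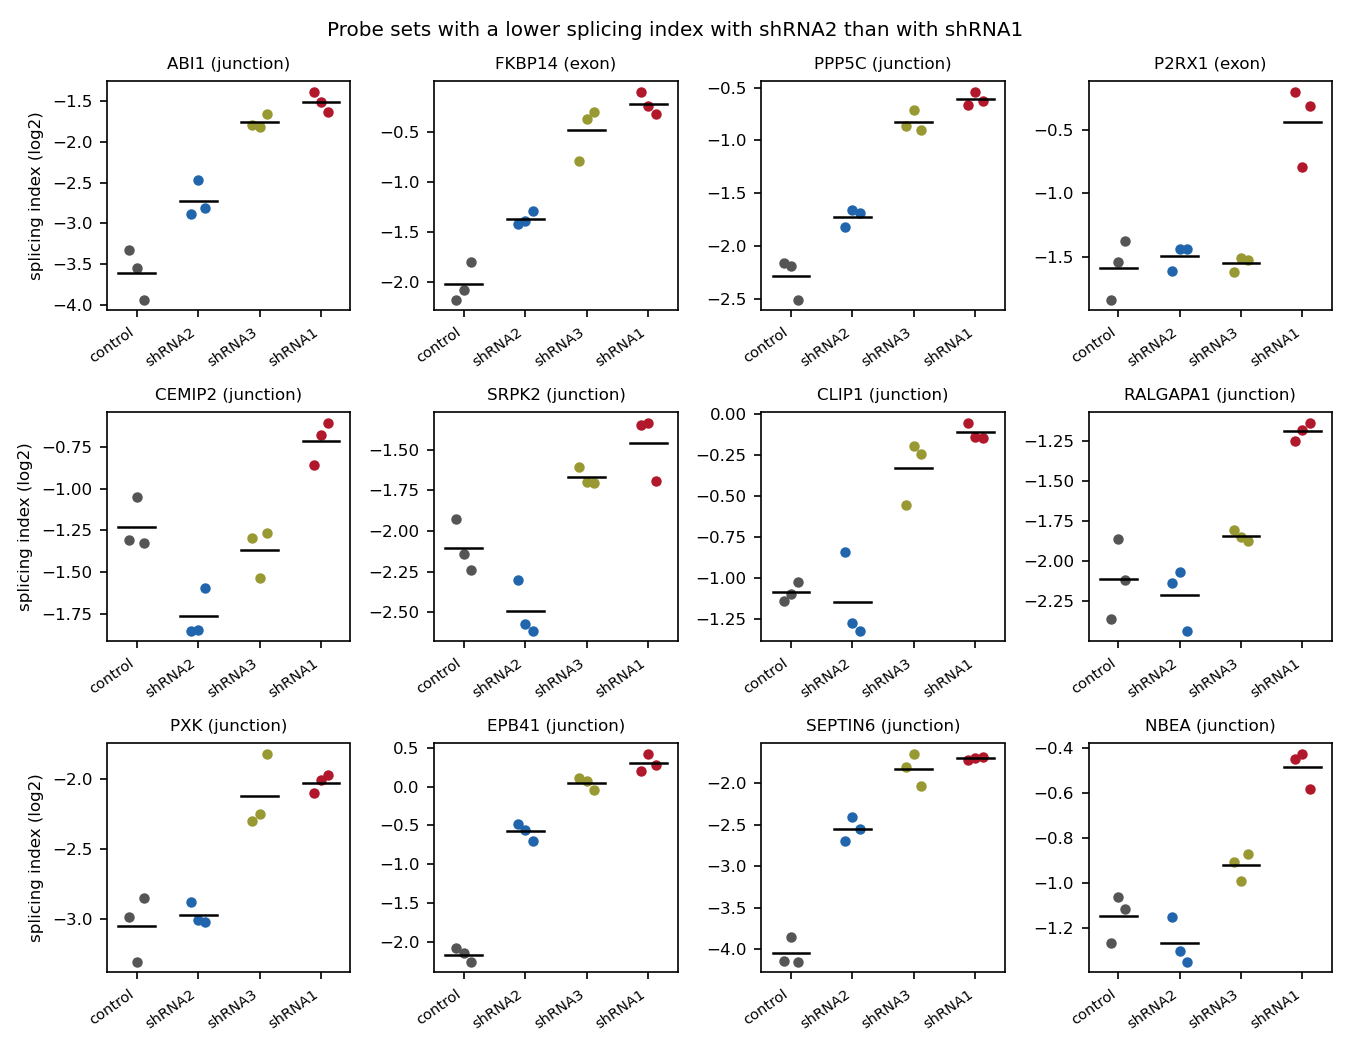
Splicing index (log2) of the 12 named probe sets that were lower with shRNA2 than with shRNA1, with 1 point per array, a bar at the mean of 3 arrays and a separate vertical scale per panel. In ABI1, FKBP14, PPP5C, EPB41 and SEPTIN6 the shRNA2 points lie between control and shRNA1, while in P2RX1 only the shRNA1 points are raised and in CEMIP2 the shRNA2 points are lowest.

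To ask which exons and junctions followed the amount of RBFOX2 without choosing them on the arrays compared, the probe sets called between shRNA3 and control were taken, and their shRNA2 minus shRNA1 differences were read. The 2 contrasts share no array, only the estimate of the spread. There were 815 such probe sets in 586 genes (0.195% of those tested). Their difference between shRNA2 and shRNA1 had the sign opposite to the shRNA3 response, which is the sign that more RBFOX2 with shRNA2 would give, in 62%, against 46.5% of all probe sets tested. With no fold threshold on the shRNA3 response the share was 44.6%. Of the 74 probe sets called between shRNA2 and shRNA1, 58 (78.4%) were in the list, or 7.12% of the 815, and in all 58 the sign was opposite. The share over the whole list was not stable. It ranged from 50.6% without shRNA2 replicate 1 to 78.8% without shRNA3 replicate 1, whose omission left 312 probe sets. Without control replicate 1 or 3 the list held 455 or 362.

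The share differed with the size of the shRNA3 response. Among 676 probe sets with a response of 1.5- to 2-fold the sign was opposite in 56.8% and 9 were called. Among 112 probe sets of 89 genes with a response of 2- to 4-fold it was opposite in 83.9% and 27 were called. Among 27 probe sets of 15 genes with a response over 4-fold it was opposite in 100% and 22 were called. The median difference of these 27, signed against the shRNA3 response, was 1.31 on the log2 scale, and it was 0.39 at 2- to 4-fold and 0.04 at 1.5- to 2-fold. For the 27 the median change from control was -2.39 with shRNA1 and -1.01 with shRNA2. The share of 100% held in every single-array omission. The 5 of the 27 that were not called differed the same way. They were a junction of ATP5F1C, which encodes an ATP synthase subunit (1.11), a junction of SPAG9, a JNK scaffold (1.02), a second HYCC1 junction (0.87), a junction of DST, a spectraplakin (0.73), and a CLSTN1 exon (0.46). These 5 were named after their values were seen.

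Probe sets with a large difference that missed the threshold included PTK2, which encodes focal adhesion kinase. Its junction JUC08011323.hg.1 was at -0.80, -0.62 and -0.68 with shRNA1 and at -1.41, -2.16 and -1.88 with shRNA2. The groups did not overlap, and shRNA2 was the more variable (difference -1.12, SE 0.16, adjusted p = 0.0525). DIAPH2, a second formin, had junction JUC0X002974.hg.1 at -0.79, -0.36 and -0.46 with shRNA1 and at -1.54, -1.70 and -1.63 with shRNA2. Its control arrays ranged from -3.06 to -2.16, which widened the shared spread (difference -1.09, SE 0.22, adjusted p = 0.303).

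**Figure D3:**
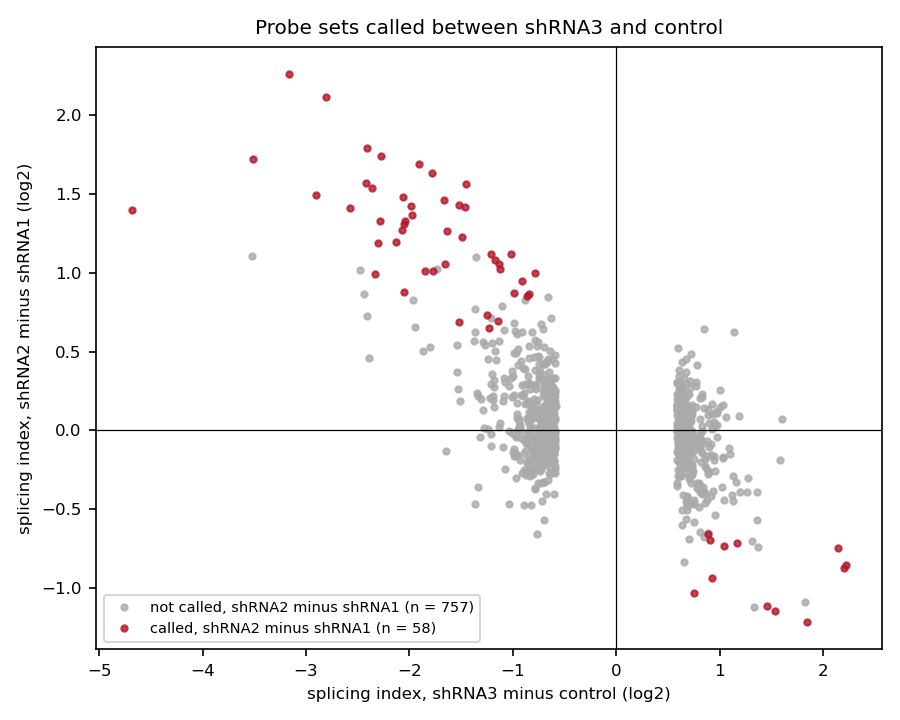
Splicing index differences (log2) of the 815 probe sets called between shRNA3 and control, with that difference on the horizontal axis and shRNA2 minus shRNA1 on the vertical axis, 1 point per probe set. The 58 probe sets also called between shRNA2 and shRNA1 lie in the upper left and lower right quadrants, where the signs are opposite, and the 27 with a shRNA3 response over 4-fold all do.

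The 16 called probe sets outside the list of 815 lay in 12 genes. NKIRAS2 held 5, all called higher, and they were among the 10 of its 26 probe sets whose own signal differed by no more than 0.3, as described with its gene value. The EPB41 exon PSR01006075.hg.1 had its means in the order of RBFOX2, at -1.23 in control, -1.29 with shRNA2, -1.79 with shRNA3 and -2.14 with shRNA1 (difference 0.85, SE 0.08, adjusted p = 0.00329). Single steps of this order did not pass the test. They were shRNA2 minus control (-0.07, adjusted p = 0.7), shRNA3 minus shRNA2 (-0.49, adjusted p = 0.0764) and shRNA3 minus shRNA1 (0.36, adjusted p = 0.168). The shRNA3 minus control difference of this exon, -0.56 (adjusted p = 0.0158), missed only the 1.5-fold limit of the list. P2RX1, an ATP-gated channel, had an exon at -0.20, -0.80 and -0.31 with shRNA1 and at -1.61, -1.44 and -1.44 with shRNA2. The shRNA2 arrays were level with control (-1.83, -1.54 and -1.38) and with shRNA3 (-1.62, -1.51 and -1.52), below shRNA1 (PSR17013599.hg.1, difference -1.06, SE 0.14, adjusted p = 0.0418). Between shRNA3 and shRNA1 the exon did not pass the test (-1.11, adjusted p = 0.0669). Its signal was 7.46 with shRNA1 and under the cutoff in the other 3 groups, so it passed the filter only through shRNA1, where it is high. Its call held in 2 of the 9 single-array omissions that kept it. RALGAPA1, an activator of Ral GTPase hydrolysis, had a junction at -1.25, -1.18 and -1.13 with shRNA1 and at -2.13, -2.06 and -2.43 with shRNA2. Here too shRNA2 overlapped the control range of -2.36 to -1.86 (JUC14005958.hg.1, difference -1.03, SE 0.12, adjusted p = 0.0116), and the call was lost without shRNA1 replicate 1, 2 or 3 (up to 0.0853). NBEA, a neuronal vesicle-traffic protein, differed by -0.78 (SE 0.07, adjusted p = 0.00314), with shRNA2 near control in the same way. SRPK2, a kinase of SR splicing proteins, differed by -1.04 (SE 0.11, adjusted p = 0.00907). Against control SRPK2 differed by 0.64 with shRNA1 (adjusted p = 0.0415) and by -0.39 with shRNA2, which did not pass the test (adjusted p = 0.105). Its call was lost without shRNA1 replicate 1 or 2 or shRNA2 replicate 2 or 3 (up to 0.0686). CEMIP2, a cell surface hyaluronidase, had a junction at -0.86, -0.67 and -0.60 with shRNA1 and at -1.85, -1.85 and -1.60 with shRNA2. This junction did not rise with the other probe sets of its gene, and its signal with shRNA2, 6.20, was under the cutoff (JUC09008282.hg.1, difference -1.05, SE 0.11, adjusted p = 0.00431). The remaining 5 genes were SCAMP5, DIAPH2, BCAP31, LMO7 and NF1, with 1 probe set each, and these 5 and the EPB41 exon were named after their values were seen. With only the 6 arrays fitted the calls of P2RX1, RALGAPA1, NBEA, SRPK2 (adjusted p = 0.168) and CEMIP2 were lost. P2RX1, RALGAPA1 and CEMIP2 also lost theirs with no filter on dim probe sets, NBEA with the median over probe sets, and P2RX1 with a replicate block and with exon probe sets only, at adjusted p-values up to 0.294 for P2RX1, 0.074 for RALGAPA1, 0.0787 for NBEA and 0.0645 for CEMIP2.

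Gene values differed between the hairpins for 198 of 16648 genes (1.19%). With shRNA2 74 were higher (0.444%) and 124 lower (0.745%). The differences were small, with a median size of 0.23 on the log2 scale. Only SYT11 and C6orf62 reached 1.5-fold, and 66 reached 1.2-fold. The count moved most with the shRNA1 arrays. It was 107, 84 and 83 without shRNA1 replicates 1, 2 and 3, and it was 132 without shRNA2 replicate 2. The shRNA2 mean lay between control and shRNA1 for 35 of the 198, and 20 of the 198 were called against control with neither hairpin. Here too the order was read on the arrays that gave the calls and is a description. The count of 35 was 15, 10 and 12 without shRNA1 replicates 1, 2 and 3, and 23 when control replicate 2 or shRNA2 replicate 1 was left out. It was 16 with no filter on dim probe sets and 10 with the median over probe sets in place of their mean. The arrays of the 2 groups did not overlap in any of the 198, nor in 16.9% of all genes.

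Gene values were set against the shRNA3 response in the same way. Of 4468 genes called between shRNA3 and control, the shRNA2 minus shRNA1 difference had the opposite sign in 35.9%, against 36.2% of all genes, with 41 called in the opposite direction and 54 in the same direction. Over all genes 99 were called in each direction. The first share ran from 25.4% without shRNA2 replicate 1 to 54.0% without shRNA2 replicate 2. Of the 22 genes with a shRNA3 response of at least 1.5-fold, 15 had the opposite sign (68.2%) and 2 were called, RBFOX2 and SYT11. RBFOX2, the target of the hairpins, is among the 15, and its sign was fixed by the choice of hairpins. The other 20 differed between the hairpins by -0.33, for FAXDC2, to 0.19, for TENM1, a teneurin. FAXDC2 was 0.63 above control with shRNA3 and TENM1 0.67 above it. DDR2, a collagen receptor at 0.71 above control with shRNA3, differed between the hairpins by -0.21, and SLC2A3, a glucose transporter at 0.66 above control, by -0.17. STC1, a secreted glycoprotein hormone at 0.88 above control with shRNA3, differed by -0.02, and DDIT4, an inhibitor of mTORC1 signalling at 0.83 above control, by -0.06. These 6 were named after their values were seen.

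A gene was called set apart in 1 hairpin if that hairpin differed from control and from both other hairpins in the same direction, each at an adjusted p under 0.05. By this rule 64 of the 198 genes were set apart in shRNA2, 52 lower and 12 higher, and 31 in shRNA1, 18 lower and 13 higher. RBFOX2 is 1 of the 18, as the hairpin with the strongest depletion. The count for shRNA1 was 20 without shRNA1 replicate 1, 15 and 16 without its replicates 2 and 3, and 20 without shRNA3 replicate 1. For shRNA2 it lay between 44 and 56 in the single-array omissions. The contrasts share arrays, so the rule gives counts and not independent tests. Whether any of these transcripts matches a hairpin's seed was not tested.

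Most of the genes set apart in shRNA2 were lower there. C6orf62, an open reading frame gene, was at 9.54, 9.64 and 9.54 with shRNA1 and at 8.95, 8.95 and 9.03 with shRNA2. Its control and shRNA3 arrays, from 9.49 to 9.63, were level with shRNA1 (difference -0.60, SE 0.04, adjusted p = 3.93e-06). All 21 of its probe sets were lower with shRNA2 and 16 were called lower, where 0.0591% of all named probe sets were. NKIRAS2, an NF-kappaB inhibitor-interacting Ras-like protein, was at 9.67, 9.78 and 9.81 with shRNA1 and at 9.22, 9.11 and 9.19 with shRNA2, and control and shRNA3 lay between 9.75 and 9.82 (difference -0.58, SE 0.04, adjusted p = 3.59e-06). Of its 26 probe sets 14 were called lower, with differences of -1.31 to -0.85, and 10 differed from 0 by no more than 0.3. The other 2, the NKIRAS2 junctions JUC17003508.hg.1 and JUC17003505.hg.1, differed by -0.55 and -0.30 and were not called. The 5 NKIRAS2 probe sets with a higher splicing index belong to those 10, and their own signals differed between the hairpins by 0.07 to 0.21. The probe sets used here carry no coordinates, so the stretch of the gene that fell was not located.

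RAB5A, a GTPase of early endosomes, was at 9.60, 9.64 and 9.66 with shRNA1 and at 9.19, 9.16 and 9.12 with shRNA2. Each shRNA2 array was below all 9 other arrays (difference -0.47, SE 0.03, adjusted p = 3.93e-06). TAF13, a subunit of the general transcription factor TFIID, was at 8.14, 8.25 and 8.21 with shRNA1 and at 7.75, 7.69 and 7.61 with shRNA2. Control was highest, at 8.52, 8.36 and 8.37, so that all hairpins were below it and shRNA2 the furthest (difference -0.52, SE 0.05, adjusted p = 0.000151). ANXA1, a phospholipid-binding annexin, had the same order, at 7.52, 7.48 and 7.48 with shRNA1, 6.99, 6.97 and 6.92 with shRNA2, while the control arrays were at 7.94, 8.02 and 7.63. Its shRNA2 arrays did not overlap any other group (difference -0.53, SE 0.08, adjusted p = 0.00307). TMSB4X, an actin monomer-binding thymosin, differed by -0.44 (SE 0.06, adjusted p = 0.00214), and this gene has near-identical copies whose signal its probes may share. GPR180 (-0.48, SE 0.05, adjusted p = 0.000109), RBL2, a retinoblastoma family protein (-0.37, SE 0.04, adjusted p = 0.000713), and SELENOP, listed on the array as SEPP1 and encoding a selenium transport protein (-0.36, SE 0.05, adjusted p = 0.00109), were also set apart in shRNA2. With the median over probe sets the calls of TAF13 (adjusted p = 0.0978) and SELENOP (0.141) were lost, and with no filter the differences of ANXA1 and SELENOP were -0.31 and -0.23 and were still called. USP37, a deubiquitinase, was lower with shRNA2 by 0.40 but was not set apart, as shRNA3 was low as well.

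Genes set apart and higher in shRNA2 included ETV1, an ETS transcription factor. It was at 7.68, 7.68 and 7.69 with shRNA1 and at 8.20, 8.13 and 8.16 with shRNA2, while control and shRNA3 lay between 7.70 and 7.89. Only the shRNA2 arrays exceeded 8 (difference 0.48, SE 0.04, adjusted p = 5.35e-05), and with a filter at the 60th percentile the difference was 0.28 and was still called. GPR50, a melatonin receptor-related protein, was at 7.95, 7.95 and 8.04 with shRNA1 and at 8.36, 8.55 and 8.62 with shRNA2. The shRNA3 arrays, at 8.22 to 8.24, lay between them (difference 0.53, SE 0.06, adjusted p = 0.000352). Control was at 8.07, 7.95 and 8.11. GPR50 was thus above control with shRNA3 as well (0.19, adjusted p = 0.0304), so shRNA2 was not the only hairpin that raised it. TMEM31 (0.40, SE 0.05, adjusted p = 0.00121), FRMD4B, a FERM-domain scaffold (0.30, SE 0.05, adjusted p = 0.00671), and PPP2R2C, a regulatory subunit of protein phosphatase 2A (0.30, SE 0.05, adjusted p = 0.00671), completed the named set with FNDC1 (0.26, SE 0.06, adjusted p = 0.0426). The FNDC1 call was lost without control replicate 3, shRNA1 replicate 1, 2 or 3, shRNA2 replicate 2 or 3 or shRNA3 replicate 2 (adjusted p up to 0.177). It was also lost with no filter on dim probe sets, with the median over probe sets and with exon probe sets only (up to 0.226). With no filter the TMEM31 difference was 0.14 (adjusted p = 0.303) and the PPP2R2C difference 0.18 (adjusted p = 0.165). With the median the FRMD4B call was lost (adjusted p = 0.26), as was that of PPP2R2C.

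In shRNA1 the gene set apart in the lower direction with the largest value of its smallest difference, RBFOX2 included, was RWDD4, at 7.92, 8.15 and 8.11 against 8.63, 8.43 and 8.57 with shRNA2. Control and shRNA3 lay between 8.46 and 8.61, level with shRNA2 (difference 0.49, SE 0.06, adjusted p = 0.00094). CEMIP2, listed on the array as TMEM2, was at 7.35, 7.37 and 7.37 with shRNA1 and at 7.93, 7.88 and 7.99 with shRNA2. It was lower than control (8.17, 8.12 and 8.17) with every hairpin, and least so with shRNA2, which is the order of RBFOX2 (difference 0.57, SE 0.04, adjusted p = 1.62e-06). Between shRNA3 and shRNA2 CEMIP2 did not pass the test (-0.11, adjusted p = 0.0992). Of its 48 probe sets 47 were higher with shRNA2, and 29 were called higher. TMEM45A was at 7.26, 7.36 and 7.32 with shRNA1 and at 7.74, 7.73 and 7.65 with shRNA2. The other 2 groups were level with shRNA2 or above it (difference 0.39, SE 0.04, adjusted p = 0.000397). NIBAN2, listed as FAM129B, differed by 0.28 (SE 0.03, adjusted p = 0.000702), and RPL26L1 by 0.28 (SE 0.05, adjusted p = 0.0123). The latter is a near copy of a ribosomal protein gene that may share its signal, and its call was lost without shRNA1 replicate 1 or 3 (up to 0.0614). ADD3, a membrane skeleton protein, was at 8.91, 8.91 and 8.88 with shRNA1 and at 9.18, 9.32 and 9.29 with shRNA2. Here shRNA1 was below control (9.04, 9.14 and 9.10) and shRNA2 above it (difference 0.37, SE 0.04, adjusted p = 0.000412). TRIQK was set apart in the same direction (0.37, SE 0.06, adjusted p = 0.00307). Its call was lost with no filter, where the difference was 0.21, and with the median over probe sets (adjusted p up to 0.109). With the median the difference of TMEM45A was 0.62 and that of RPL26L1 0.49, both still called.

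SYT11, a synaptotagmin of vesicle traffic, had the largest difference of any gene. It was at 7.86, 7.62 and 7.74 with shRNA1 and at 6.95, 7.13 and 7.15 with shRNA2, with shRNA3 between them at 7.47, 7.43 and 7.47. Control was lowest, at 6.78, 6.81 and 6.93, so the order of the groups was the reverse of that of RBFOX2 (difference -0.67, SE 0.06, adjusted p = 9.02e-05). Its value rests on 4 probe sets, all lower with shRNA2 and 3 of them called. INHBE, an inhibin beta subunit, was at 7.25, 7.30 and 7.24 with shRNA1 and at 6.62, 6.93 and 6.87 with shRNA2. Control and shRNA3 lay between 6.70 and 6.91, level with shRNA2 (difference -0.46, SE 0.07, adjusted p = 0.00322). FSD1L (-0.28, SE 0.05, adjusted p = 0.00672), MOSPD2 (-0.30, SE 0.06, adjusted p = 0.0291), the noncoding RNA ZFAS1 (-0.28, SE 0.05, adjusted p = 0.0211) and CLGN, a chaperone of the endoplasmic reticulum (-0.27, SE 0.05, adjusted p = 0.0161), were by the rule also set apart and higher with shRNA1. Against control CLGN differed by 0.29 with shRNA1, 0.02 with shRNA2 (adjusted p = 0.784) and -0.42 with shRNA3 (adjusted p = 0.00016), so shRNA1 was not the only hairpin that moved it. FSD1L was above control with every hairpin, by 0.44 with shRNA1 and 0.17 with each of the others (adjusted p = 0.0282 with shRNA2 and 0.0155 with shRNA3). Calls were lost for FSD1L without shRNA1 replicate 2 (0.0518), for MOSPD2 without shRNA1 replicate 1 or 2 or shRNA2 replicate 1 or 3 (up to 0.14), for ZFAS1 without shRNA1 replicate 1, 2 or 3 or shRNA2 replicate 1 (up to 0.102), and for CLGN without shRNA1 replicate 2 or 3 or shRNA2 replicate 2 (up to 0.0786). All 4 calls were lost with the median over probe sets (0.0711 for FSD1L, 0.153 for ZFAS1 and 0.398 for CLGN). MOSPD2 and CLGN also lost theirs with no filter, MOSPD2 with only the 6 arrays fitted (adjusted p up to 0.103), and ZFAS1 with exon probe sets only, where its difference was -0.15. With exon probe sets only the INHBE difference was -0.26 and was still called. Other called genes were not set apart in either hairpin, 103 in all. ALDH1A2, a retinaldehyde dehydrogenase, and REEP3, a membrane-shaping protein of the endoplasmic reticulum, were higher with shRNA2 by 0.35 and 0.36 (SE 0.04 each, adjusted p = 0.000196 and 0.0002), with both shRNA1 and shRNA3 below control and shRNA2 level with it or above. FLRT2, a cell adhesion protein, was higher by 0.32 (SE 0.07, adjusted p = 0.0481), and its call held in 4 of 12 single-array omissions, those of control replicates 2 and 3 and shRNA3 replicates 1 and 2 (adjusted p otherwise up to 0.203). With no filter the FLRT2 difference was 0.13 (adjusted p = 0.439), and with the median over probe sets the calls of FLRT2 and REEP3 (0.0711) were lost.

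**Figure D4:**
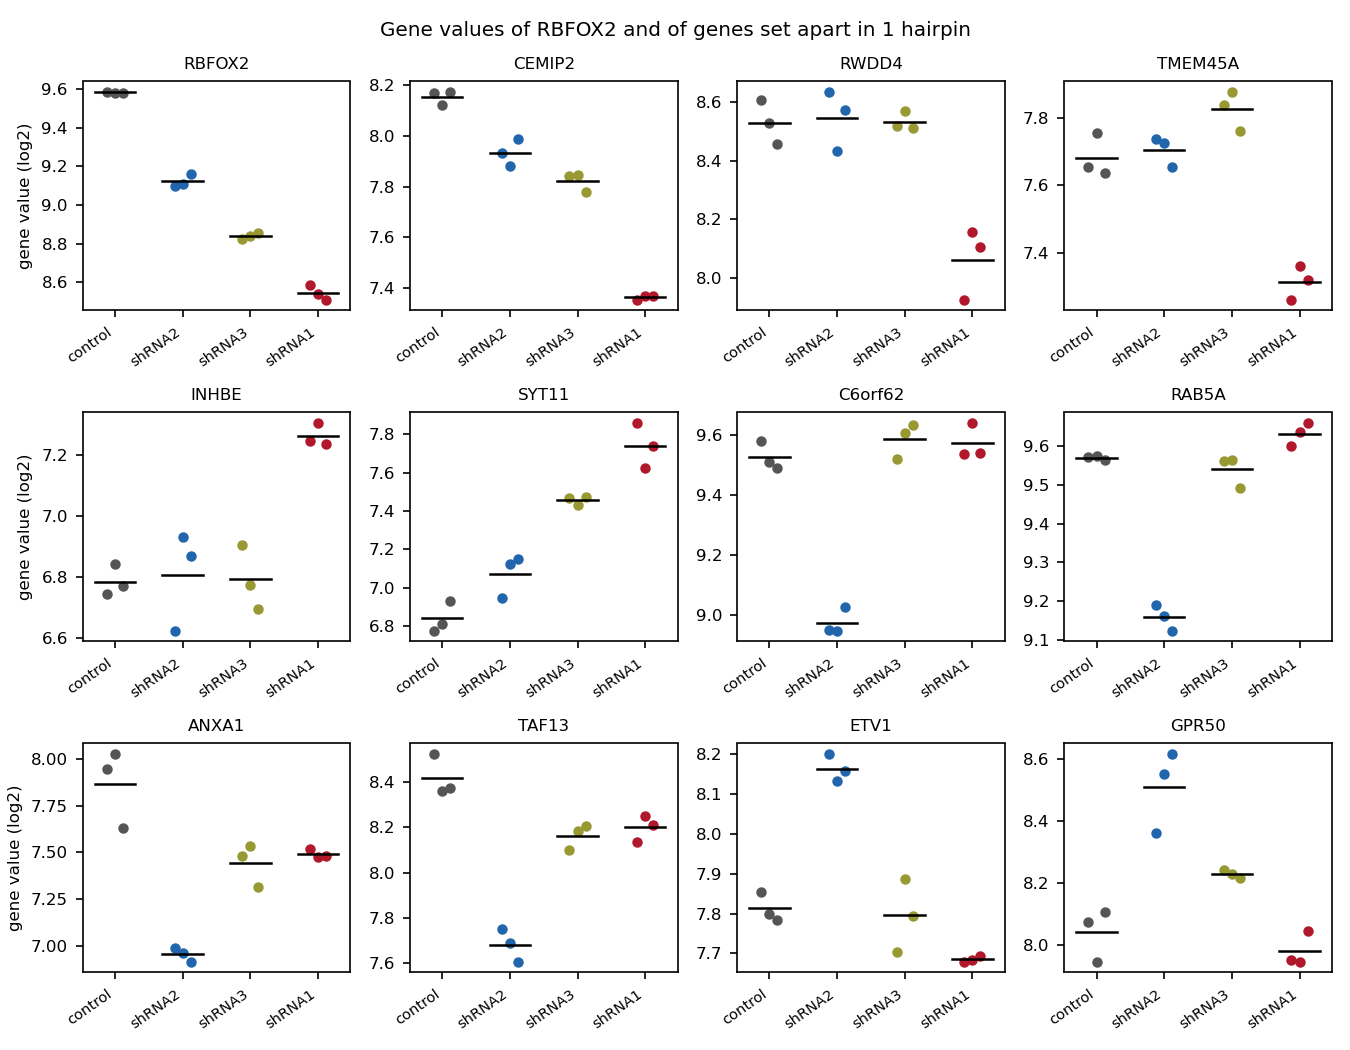
Gene values (log2) of RBFOX2 and of 11 genes set apart in 1 hairpin, with 1 point per array, a bar at the mean of 3 arrays and a separate vertical scale per panel. In RWDD4, TMEM45A and INHBE the shRNA1 points stand alone, in C6orf62, RAB5A and ETV1 the shRNA2 points stand alone, and in CEMIP2 and SYT11 the 4 groups follow the order of RBFOX2 or its reverse.

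**Figure D5:**
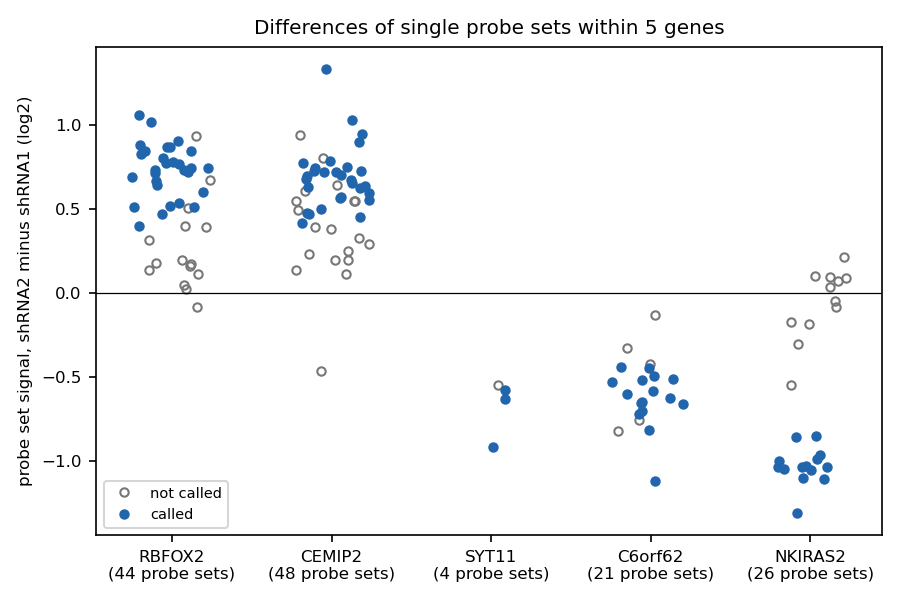
Difference in log2 signal, shRNA2 minus shRNA1, of single probe sets (1 point each) in 5 genes, with filled points for those called at an adjusted p below 0.05. The probe sets of RBFOX2 and CEMIP2 lie mostly above 0 and those of SYT11 and C6orf62 all below 0, while for NKIRAS2 14 lie near -1, 10 near 0 and 2 between them, at -0.55 and -0.30.

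Gene lists for pathways and for cell identity mostly held no called gene. Among 47 measured RBFOX splicing targets 11 held a called splicing probe set (23.4%, against 0.264% of all genes), and 5 were called higher at the gene level (background 0.444%). The 5 were RBFOX2, ADD3, EPB41 (0.16, SE 0.03, adjusted p = 0.0439), CLSTN1 (0.15, SE 0.03, adjusted p = 0.0399) and APBB2 (0.14, SE 0.03, adjusted p = 0.0426), and the last 2 were named after their values were seen. RBFOX2 is the target of both hairpins, so its call says nothing about the other members of the list. The EPB41 gene call was lost in every single-array omission other than that of shRNA2 replicate 2 (adjusted p up to 0.194). It was also lost in 7 of 10 other settings, with a difference down to 0.06 (adjusted p = 0.737) with the median over probe sets. A gene value includes the probe sets of its alternative exons, so it is not independent of the splicing differences in these genes. The list holds targets known from earlier work and was chosen with results of these arrays known. None of the other 21 splicing regulators measured, such as MBNL3 (0.09, adjusted p = 0.285) and MBNL1 (-0.08, adjusted p = 0.503), was called.

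Targets of the tumour suppressor p53 were lower with shRNA2 in 4 of 19 measured members (background 0.745%) and had a negative difference in 18, against 47.0% of all genes. The median difference was -0.07, against 0.005 over all genes. ZMAT3, an RNA-binding zinc finger protein, was at 7.99, 7.92 and 7.94 with shRNA1 and at 7.63, 7.66 and 7.68 with shRNA2. The groups did not overlap (difference -0.29, SE 0.04, adjusted p = 0.00363). BTG2, an antiproliferative gene, was at 8.89, 8.89 and 8.88 with shRNA1 and at 8.66, 8.72 and 8.61 with shRNA2, and was set apart in shRNA2 (-0.23, SE 0.04, adjusted p = 0.00443). Its control arrays were at 9.01, 9.02 and 9.03, so BTG2 was below control with shRNA1 too (-0.13, adjusted p = 0.0309). DDB2, a DNA damage recognition protein, differed by -0.34 (SE 0.07, adjusted p = 0.0365), and the death receptor gene TNFRSF10B, named after its value was seen, by -0.22 (SE 0.04, adjusted p = 0.0117). CDKN1A (-0.12, adjusted p = 0.231) and MDM2 (-0.12, adjusted p = 0.318), also named after their values were seen, did not pass the test. The DDB2 call was lost without shRNA1 replicate 1, 2 or 3, shRNA2 replicate 1 or 3 or shRNA3 replicate 1 or 3 (adjusted p up to 0.157), and the list had 2 members called without shRNA1 replicate 2 or without shRNA1 replicate 3. It had 2 called with no filter on dim probe sets and 1 with the median over probe sets. With the median BTG2 differed by -0.10 (adjusted p = 0.66) and the ZMAT3 call was lost (0.205). The DDB2 call was lost with only the 6 arrays fitted, with no filter and with exon probe sets only (up to 0.104). The line carries the SV40 large T antigen, which binds p53, in all 4 groups.

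Chaperones of the endoplasmic reticulum and genes of the unfolded protein response were lower with shRNA2 in 3 of 20 measured members (background 0.745%), with a median of -0.10 and a negative difference in 17. CLGN, HYOU1 (-0.25, SE 0.05, adjusted p = 0.0289) and MANF (-0.21, SE 0.04, adjusted p = 0.0161) were the called members, and HSPA5, the main chaperone of this compartment, differed by -0.14 (adjusted p = 0.0712). No member was called once shRNA1 replicate 2, shRNA1 replicate 3 or shRNA2 replicate 2 was left out, and 1 was called with only the 6 arrays fitted, with no filter or with the median over probe sets. With trend and robust moderation or with exon probe sets only 5 were called. The adjusted p reached 0.121 for HYOU1, 0.162 for MANF and 0.398 for CLGN in these settings. Single members of other lists were called. They were SPTLC2 of sphingolipid synthesis (-0.17, SE 0.03, adjusted p = 0.0222), lost without shRNA1 replicate 1, 2 or 3 or shRNA2 replicate 1 or 2 (up to 0.123) and with only the 6 arrays, no filter or the median (up to 0.227), SYT11 among 12 synaptic vesicle genes and NKIRAS2 among 19 NF-kappaB pathway genes. No gene was called among 26 of the integrated stress response (median 0.02), 28 of hypoxia and glycolysis (-0.04), 15 amino acid transporters (0.02), 23 of oxidative phosphorylation (0.001), 26 of DNA replication (-0.03) or 24 of mitosis (-0.01). None was called among 21 interferon response genes (median 0.01), 12 genes of the RNA interference machinery (-0.03), 11 of nonsense-mediated decay (-0.05), 21 SR proteins and hnRNPs (-0.02), 18 of lipid synthesis (0.02), 15 immediate early genes (-0.01) or 7 histone genes (-0.001). For these lists an interval for each gene was not computed, and a missed threshold does not show equal levels. A negative difference in most members was not particular to the p53 and endoplasmic reticulum lists. The negative share was 90.9% in nonsense-mediated decay and 88.5% in DNA replication. It was 33.3% in amino acid transporters and in lipid synthesis, and 47.0% over all genes.

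The parent line of 293T is known to express neuronal filament genes, and NEFL (9.83 with shRNA1, 9.92 with shRNA2), NEFM (9.54 and 9.66), INA (9.56 and 9.41) and vimentin (10.50 and 10.46) were above the median gene level of 8.53. The other 3 markers of this list, NEFH, GAP43 and STMN2, lay between 7.20 and 7.56 and so below it. The mean level of the 7 markers of this list ran from 8.75 to 8.82 on the shRNA1 arrays and from 8.77 to 8.87 on the shRNA2 arrays. Fibroblast, endothelial, hepatocyte and blood cell markers had mean levels between 7.48 and 7.86 on these 6 arrays, and none of their 23 measured members was called. Keratinocyte markers lay between 8.08 and 8.24 and had no called member either. Of 7 epithelial markers CDH1 was higher with shRNA2 (0.20, SE 0.04, adjusted p = 0.0411), a call that held only without control replicate 1 or 2 or shRNA2 replicate 1 among the 12 single-array omissions (adjusted p otherwise up to 0.147) and was lost in 5 of 10 other settings (up to 0.38). Array medians lay between 7.24 and 7.27, correlations across probe sets among the 6 arrays between 0.993 and 0.995, and no 2 arrays held identical values. The labels number the replicates but name no separate cultures, so the spread behind the p-values is that between arrays and could be technical. Precision is limited by the number of arrays.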

How the data were processed

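The authors deposited log2 values for 12 arrays, a scale read from their range, and these entered the work unchanged. Affymetrix Expression Console with RMA made them, per the submitters' processing notes. For the versions, settings and genome build, the sources used here give nothing. Of 914585 rows, 573909 were exon and 339146 junction probe sets, and 1530 controls were left out. GEO's platform annotation gave 672085 probe sets 1 gene symbol, 39483 several and 201487 none, and only the first were used for genes. Of 22085 symbols 19540 were current, 2474 were updated through RefSeq gene names (GRCh38.p14, names only) and 71 kept the array's symbol. Probe sets with a mean above the 40th percentile (log2 6.53) were kept, 547833 in all, and 18138 identical copies within a gene were dropped. Gene values needed 3 kept probe sets, and the splicing index 4.

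Two-sided limma tests (limma 3.58.1, R 4.3.3, the package data.table, version 1.17.8) with lmFit and eBayes were fitted to 4 groups of 3 arrays without a block (8 residual degrees of freedom). Genes and single probe sets were called at an adjusted p below 0.05, and splicing indices also at 1.5-fold. The steps were tested on simulated data. Deviations of same-numbered shRNA1 and shRNA2 arrays correlated at -0.23, 0.05 and -0.03 over genes. They showed no pairing by number, but with so few arrays they cannot exclude one. Named were the RBFOX genes, the 12 highest and lowest called genes and probe sets (at most 1 probe set per gene and direction), up to 6 genes set apart per hairpin and direction, up to 3 members per list, and the 5 largest differences each way among probe sets called between shRNA3 and control. The comparison, the lists and the naming rule were chosen with earlier results of these data known. Hairpin and exon sequences were not used here.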

Additional observations from a re-analysis of the deposited data

How the results depend on the processing

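The RBFOX2 difference stayed past the threshold in every alternative, from 0.45 without a filter on dim probe sets to 0.72 with the median over probe sets. Of 64 named called genes and probe sets, 40 kept their call in every single-array omission and 26 in every alternative run, and none changed sign. Gene calls, 198 in all (74 higher, 124 lower), were 89 (29 and 60) with only the 6 arrays fitted, 66 (20 and 46) at 1.2-fold, 114 (37 and 77) with no filter and 79 (25 and 54) with the median over probe sets. Over single-array omissions they ran from 83 to 196 (27 to 88 higher, 56 to 121 lower). Splicing calls, 74 (56 higher, 18 lower), were 26 (23 and 3) with only the 6 arrays, and 53 to 75 (43 to 60 and 7 to 21) over omissions. Lower calls were 31 with no fold threshold and 11 both with no filter and with a filter at the 60th percentile. The shRNA3 list of 815 held 457 with each pair of groups fitted alone, 3335 with no fold threshold, 477 with no filter, 439 at the 60th percentile, and 312 to 917 over omissions. Its opposite-sign share of 62% was 67.6% with pairs fitted alone, 44.6% with no fold threshold, 72.1% with no filter, 56.5% with the median and 50.6% to 78.8% over omissions. Over 4-fold it was 100% in all alternatives but 96.0% with no filter. Of the list, 58 were called the opposite way, 25 with pairs fitted alone and 42 to 58 over omissions, and 0 the same way, 4 with no fold threshold and 0 to 1 over omissions.

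The gene-level share of 35.9% was 38.5% with no filter, 37.9% with quantile normalization, 38.7% with the median and 25.4% to 54.0% over omissions. Genes set apart in shRNA1, 31, were 11 with the median and 15 to 42 over omissions, and in shRNA2, 64, were 42 with no filter, 27 with the median and 44 to 56. Genes with shRNA2 between control and shRNA1, 35, were 16 with no filter, 10 with the median and 10 to 35. Neither count can be had from the 6 arrays alone. Called p53 targets, 4, were 2 with no filter, 1 with the median and 2 to 5 over omissions. Called ER genes, 3, were 1 with only the 6 arrays, with no filter or with the median, 5 with trend and robust moderation or exon probe sets only, and 0 to 3 over omissions. The replicate number was also fitted as a block, though the correlations of same-numbered arrays showed no pairing. With this block there were 165 gene calls and 60 splicing calls, the share over the list was 66.9%, and 1 probe set was called the same way. Alternatives for the gene-level share, the share over 4-fold, the genes between control and shRNA1 and the p53 and ER counts were added after the data were seen. Dim signals limit the splicing index where a group lies under the cutoff. Genes named outside the rule were not followed over the alternatives. The causes of these shifts were not tested.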

Other observations

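Among 106456 kept probe sets without a single gene name, 41 were called between the hairpins at an adjusted p under 0.05 by limma (0.0385%), 17 higher and 24 lower with shRNA2. Over all 547833 kept probe sets 537 were called (0.098%). They belong in no comparison above, since neither a gene value nor a splicing index can be formed for them.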
